A study of Ambystoma mexicanum with 17 samples.

Results

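Explants of axolotl (Ambystoma mexicanum) oropharyngeal endoderm at stage 39 were compared with explants at stage 37/38 by RNA-seq, across all genes of a Trinity assembly. The members are the 12 libraries whose titles carry these stages, 6 for each, of the 17 libraries in the series. The 5 libraries of stage 41 were not used. The embryos came from the Ambystoma Genetic Stock Center; the labels name no strain or genotype, and no agent beyond the culture medium with its albumin and antibiotics. Both groups were explants cut from embryos at stage 15, kept in L-15 medium, and harvested by the stage that whole sibling embryos had reached, so each stage is that of the siblings and not a stage read from the explant. Whether a replicate was 1 embryo, a pool of embryos or a separate culture is not stated. P-values therefore measure only how these samples varied, which may be technical in part.

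Endoderm is the innermost germ layer of the embryo, and its oropharyngeal part comes to line the mouth and pharynx. In axolotls it gives rise to the taste buds of the oropharynx, and work on such explants has shown that taste buds can form from this tissue when it is cut away before nerves or neural crest reach it. The comparison covers the earlier of the 2 steps between the harvests. The identifiers are those of the assembly, and none is paired with a gene name (0 of 19649 matched the reference table of axolotl genes). The labelled tissue therefore could not be checked against markers of endoderm, taste buds, muscle, nerve or skin, and no gene below is given a role. For the same reason at most 2 identifiers are given for each direction and other genes are described by rank.

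The libraries were shallow, with 71698 to 524489 counts each and 3304 to 9462 genes with at least 1 count. Of 15319 genes with a count in the 12 libraries, 592 had a count in all of them. Total counts averaged 201035 ± 128948 at stage 37/38 and 275874 ± 149963 at stage 39 (SD, n = 6 each), a difference within the spread between libraries (two-sided exact permutation p = 0.3636, adjusted p = 0.9091 over 5 library measures). The share of counts in the 10 most abundant genes was 41.5% ± 7.52 and 44.1% ± 11.8 (exact permutation p = 0.6537, adjusted p = 0.9226). In a random draw of 70000 counts per library, 4365 ± 1000 genes were seen at stage 37/38 and 4545 ± 974 at stage 39 (exact permutation p = 0.7381, adjusted p = 0.9226). The effective number of genes in that draw, which is the exponential of the Shannon entropy and falls when few genes take most counts, was 292 ± 138 and 297 ± 238 (exact permutation p = 0.9654, adjusted p = 0.9654). The titles carry letters in 2 runs, A to J and K to R, whose meaning is not given. The 10 most abundant genes took 38.4% to 57.2% of counts in the 7 libraries of the first run and 26.5% to 41.3% in the 5 of the second. Within the first run, genes seen at equal depth averaged 4905 at stage 37/38 and 4047 at stage 39, and within the second 3826 and 5542, so the direction differed between the runs.

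The 2 stages did not form separate groups of libraries. Over the 1182 genes tested, Pearson correlations of log2 CPM between the 66 pairs of libraries ran from 0.322 to 0.788 with a median of 0.544. CPM is counts per 1000000 counts of a library. Pairs of 1 stage averaged 0.536 and pairs of different stages 0.537, a difference of -0.00055 (one-sided exact permutation p = 0.4589 over 924 divisions of the labels). The closest pair joined different stages, stage 37/38 replicate 1 and stage 39 replicate 5. Libraries of stage 37/38 correlated with each other at a mean of 0.563 and those of stage 39 at 0.510 (two-sided exact permutation p = 0.3593, adjusted p = 0.9091). Stage 39 replicates 2 and 4 correlated at 0.732, while the highest correlation of either with another library was 0.646. Without them the mean within stage 39 was 0.543. This pair had already stood apart in an earlier look at these data, so results that rest on it are given with and without it.

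**Figure D1:**
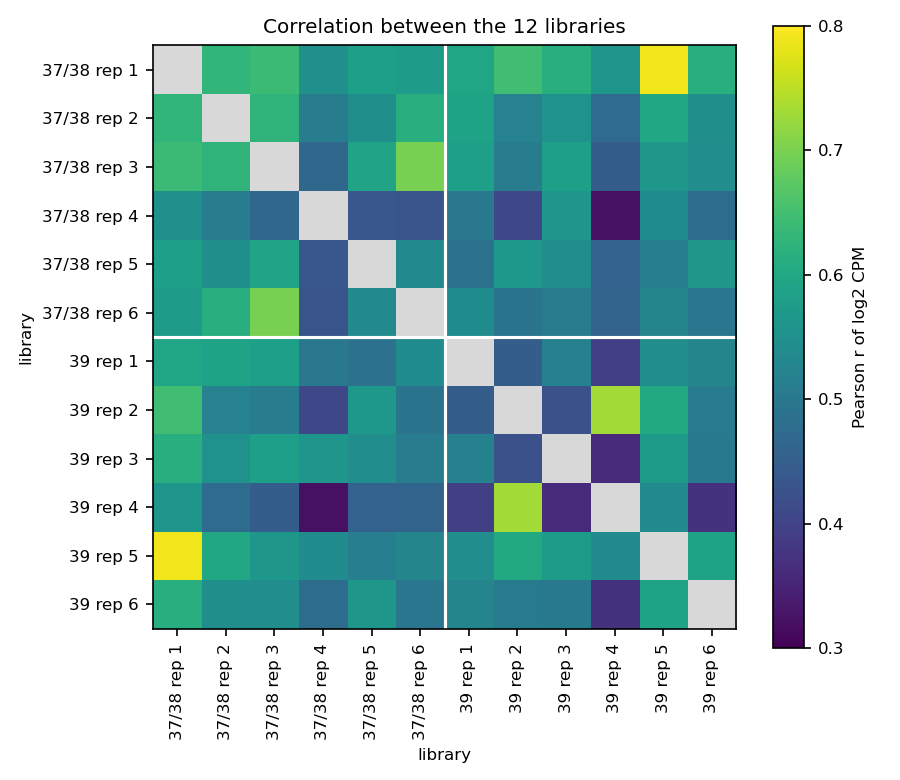
Pearson correlation of log2 CPM over 1182 genes for each pair of the 12 libraries, with white lines between the stages and the diagonal in grey. The mean is 0.563 in the stage 37/38 block, 0.510 in the stage 39 block and 0.537 between the stages, and the brightest cells are stage 37/38 replicate 1 with stage 39 replicate 5 and stage 39 replicate 2 with replicate 4.

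No gene passed the threshold between the stages in the main test. The explants are bulk samples, in which fewer cells of a type and less RNA per cell cannot be told apart. Of 1182 genes, 0 were called at an adjusted p under 0.05 by edgeR's quasi-likelihood test (0% called), and the smallest adjusted p was 0.7422. At an unadjusted p under 0.05 there were 47 genes (3.98%), fewer than the 59.1 that a flat distribution of p would give. Of these, 38 were higher at stage 39 (3.21% of tested genes) and 9 were lower (0.761%). The median log2 fold change of all tested genes was 0.11, and 55.1% of genes had a value above 0. Both values depend on how libraries were scaled and on the method. With total counts of the tested genes in place of TMM factors the median was -0.13, 43.0% of values were above 0, and the genes at an unadjusted p under 0.05 were 21 higher and 14 lower. Limma-voom, with TMM factors, also called 0 genes, with 53 at an unadjusted p under 0.05, 35 higher and 18 lower. Its median log2 fold change was 0.005, and 50.3% of its values were above 0. DESeq2 called 14 of the 353 genes for which it gave an adjusted p (3.97%), 13 of them higher at stage 39 (3.68%).

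**Figure D2:**
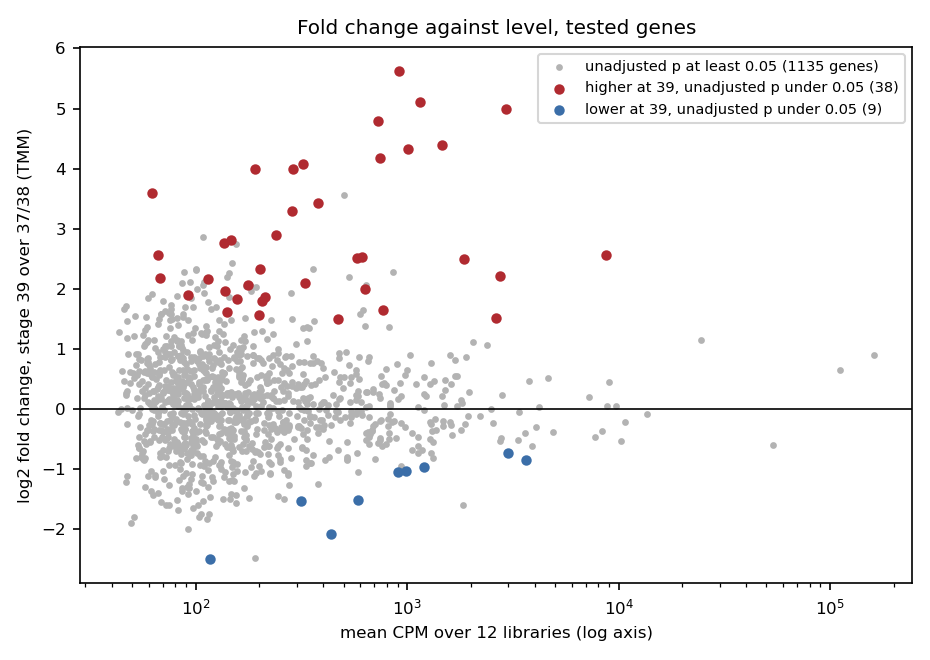
Log2 fold change of stage 39 over 37/38 (TMM scaling) against the mean CPM over the 12 libraries on a log axis, 1 point per tested gene. The 38 higher genes at an unadjusted p under 0.05 reach larger fold changes than the 9 lower ones, and none of the 47 passed after adjustment.

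The genes with higher values at stage 39 had their highest values mostly in the same 2 libraries, and were above the stage 37/38 median in more libraries than these. In the 38 genes, a median of 5 of 6 stage 39 libraries lay above the stage 37/38 median, against 3 of 6 over all tested genes. The 2 highest stage 39 libraries of a gene, whichever they were, held a median of 68.7% of its stage 39 CPM, against 63.1% over all tested genes. Its 2 highest stage 37/38 libraries held a median of 67.7% of its stage 37/38 CPM, against 60.1% over all tested genes. Of the 38 genes, 31 had their highest stage 39 CPM in replicate 4 (19 genes) or replicate 2 (12 genes), against 184 of all 1182 tested genes (15.6%). In 27 of the 38, replicates 2 and 4 together held over 50% of the summed stage 39 CPM, as they did in 115 of all tested genes (9.73%). These counts use CPM without TMM factors, which were 0.680 in replicate 2 and 0.479 in replicate 4. On that scale 433 of all tested genes had their lowest stage 39 CPM in replicate 4. The shares over all tested genes therefore depend on scaling, and the contrast on the TMM scale was not tested. The 38 genes together took 11.5% of the counts of replicate 2 and 11.4% of those of replicate 4. They took 1.30% to 3.01% in the other 4 libraries of stage 39 and 0.925% to 1.85% at stage 37/38. Their median log2 fold change was 2.52, and without replicates 2 and 4 it was 0.82. Without these 2 libraries 31 of the 38 were still higher and 4 had an unadjusted p under 0.05. Of all 1182 tested genes, 616 were higher without them, 566 were lower, and 25 had such a p. The 38 genes were picked by their difference in these libraries, so the counts describe where it lies and are no test. The 13 higher genes that DESeq2 called rested more on the pair, which held over 50% of stage 39 CPM in 13 of 13. Their 2 highest stage 39 libraries held a median of 90.7% of that CPM. A median of 4 of 6 stage 39 libraries lay above the stage 37/38 median. Their median log2 fold change in DESeq2 was 4.36 with all libraries and 0.39 without the pair. In edgeR without the pair, 9 of them were higher and 4 lower, with 0 at an unadjusted p under 0.05. DESeq2 called 0 of 1174 genes without the pair.

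**Figure D3:**
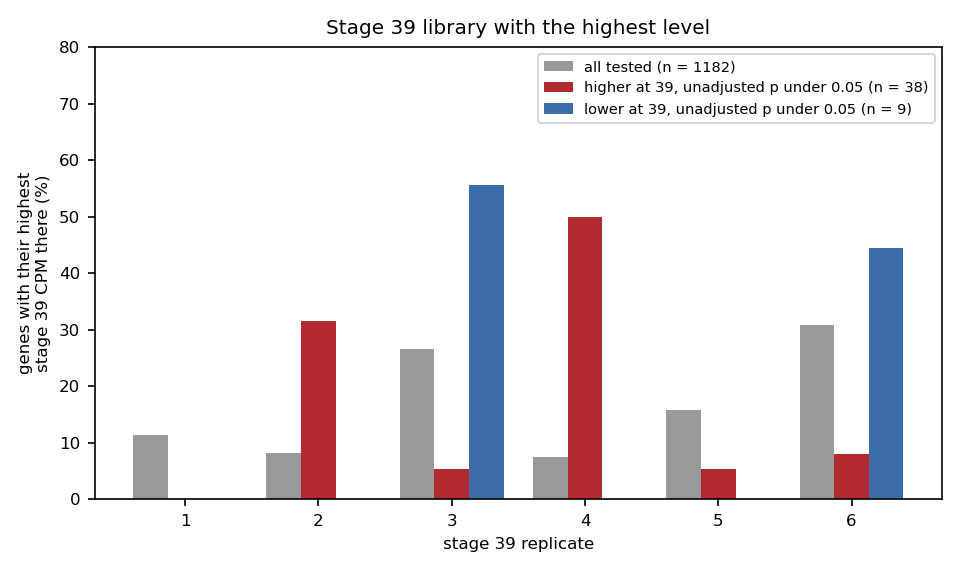
Share of genes, in percent, whose highest stage 39 CPM lies in each stage 39 replicate, for all tested genes and for genes at an unadjusted p under 0.05 in either direction. Replicates 2 and 4 are the highest library for 31 of the 38 higher genes but for 15.6% of all tested genes and for 0 of the 9 lower ones. CPM is without TMM scaling, which would raise the values of replicates 2 and 4.

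The 2 genes with the smallest p among those higher at stage 39 show this in single libraries. TRINITY_DN27454_c0_g1 had 172, 28.1, 77.6, 41.8, 138 and 32.6 CPM in stage 37/38 replicates 1 to 6. At stage 39 it had 80.8, 881, 171, 1180.0, 217 and 401 CPM in replicates 1 to 6. Replicates 2, 4, 5 and 6 of stage 39 lay above every stage 37/38 library, and the other 2 lay within the range of that stage. Its mean was 81.8 ± 60.5 CPM at stage 37/38 and 488 ± 443 at stage 39 (SD, n = 6 each), and its log2 fold change was 3.30 (SE 0.83, edgeR adjusted p = 0.7422). It was 1.36 (SE 0.75) without stage 39 replicates 2 and 4. The DESeq2 adjusted p of this gene was 0.00326, and its adjusted p ran from 0.00326 to 0.9994 over the alternatives.

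TRINITY_DN4502_c1_g1 had 159, 49.2, 38.8, 0, 113 and 76.2 CPM in stage 37/38 replicates 1 to 6. At stage 39 it had 8.08, 2292, 0, 7912, 237 and 114 CPM. Replicates 2, 4 and 5 lay above every stage 37/38 library, while replicate 1 lay below all stage 37/38 libraries but the one at 0 and replicate 3 had no count. Replicates 2 and 4 held 96.6% of its summed stage 39 CPM. Its log2 fold change was 5.62 (SE 1.60, edgeR adjusted p = 0.7422), and without these 2 libraries it was 0.32 (SE 1.15, edgeR adjusted p = 0.9969). DESeq2 called it (adjusted p = 0.00326), and so did edgeR without a filter on low counts (adjusted p = 3.495e-11) and with a filter of 5 CPM in 5 libraries (adjusted p = 0.000204). Without the pair its DESeq2 adjusted p was 0.9985, and over all alternatives its adjusted p reached 0.9994.

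The genes of ranks 3 to 5 in this direction had 69.8%, 70.7% and 71.8% of their summed stage 39 CPM in the pair. The gene of rank 3 had 865 CPM in stage 39 replicate 5, between 2077 in replicate 4 and 372 in replicate 2, against 0 to 194 at stage 37/38. Its log2 fold change was 4.07 (SE 1.17) with all libraries and 2.15 (SE 1.10) without the pair. The genes of ranks 4 and 5 had 7337 and 965 CPM in replicate 4 and 9731 and 2984 in replicate 2. Their log2 fold changes went from 2.21 (SE 0.65) to 0.34 (SE 0.35) and from 2.51 (SE 0.75) to 0.61 (SE 0.57) without the pair. The edgeR adjusted p of each of these 3 genes was 0.7422. DESeq2 called all 3 with the full set of libraries, at adjusted p of 0.00611, 0.0337 and 0.0320 in order of rank. Over the alternatives their adjusted p ran from 0.00611, 0.00320 and 0.0320 up to 0.9994.

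The genes with lower values at stage 39 were also lower in most of its libraries, and none had its highest stage 39 CPM in replicate 2 or 4. In the 9 genes, a median of 6 of 6 stage 39 libraries lay below the stage 37/38 median, against 3 of 6 over all tested genes. Their median log2 fold change was -1.05. Without stage 39 replicates 2 and 4 it was -0.92 with 9 of 9 still lower, beside 0.82 for the 38 higher genes. Of all 1182 tested genes, 566 were lower without the pair. The 9 genes together took 0.918% to 2.11% of the counts of a stage 37/38 library and 0.332% to 0.968% of a stage 39 library. Replicates 2 and 4 were the 2 lowest of these, and the ranges of the stages overlapped. These shares are not TMM-scaled, and TMM scaling raises the values of replicates 2 and 4. As above, these genes were picked by this difference, so the values are a description.

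TRINITY_DN10015_c0_g1 had 651, 689, 1352, 851, 646 and 1099 CPM in stage 37/38 replicates 1 to 6. At stage 39 it had 129, 183, 308, 82.9, 349 and 662 CPM. Replicate 6 of stage 39 lay within the range of stage 37/38, and the other 5 lay below all of it. Its mean was 881 ± 288 CPM at stage 37/38 and 286 ± 211 at stage 39 (SD, n = 6 each), with a log2 fold change of -1.53 (SE 0.45) and an edgeR adjusted p of 0.7422. The value was -1.36 (SE 0.48) without stage 39 replicates 2 and 4. This was the 1 lower gene that DESeq2 called (adjusted p = 0.0320), and its adjusted p ran from 0.0320 to 0.9994 over the alternatives.

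A second gene of the same assembly component limits this value. A component is a set of assembled sequences that share stretches of sequence, and reads from near-identical stretches can be divided between its genes. The partner of TRINITY_DN10015_c0_g1 had 431 ± 227 CPM at stage 37/38 and 532 ± 319 at stage 39 (SD, n = 6 each), with a log2 fold change of 0.52 (SE 0.50). With counts summed over both genes the log2 fold change was -0.53 (edgeR adjusted p = 0.9523), and the sums of 1023 to 1688 CPM at stage 37/38 overlapped those of 161 to 1360 at stage 39. Whether reads moved between these 2 genes was not tested. TRINITY_DN27454_c0_g1 also has a partner, with 118.5 CPM in stage 37/38 replicate 5 and 2.93 CPM in stage 39 replicate 5. The highest sum of these 2 genes at stage 37/38 was 257 CPM, and the sum in stage 39 replicate 5 lay under it. With counts summed the log2 fold change was 3.02 (edgeR adjusted p = 0.6117).

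TRINITY_DN21269_c0_g2 had 224, 711, 560, 363, 200.3 and 783 CPM in stage 37/38 replicates 1 to 6. At stage 39 it had 88.8, 105, 355, 24.4, 220 and 130 CPM. Replicates 3 and 5 of stage 39 lay within the range of stage 37/38, and the other 4 lay below all of it. Its log2 fold change was -1.53 (SE 0.58, edgeR adjusted p = 0.9865), and without replicates 2 and 4 it was -1.30 (SE 0.62). Ranks 3 to 5 had log2 fold changes of -0.97 (SE 0.39), -2.50 (SE 1.04) and -0.86 (SE 0.37), each at an edgeR adjusted p of 0.9865. With counts summed per component the value of rank 4 was -1.12.

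**Figure D4:**
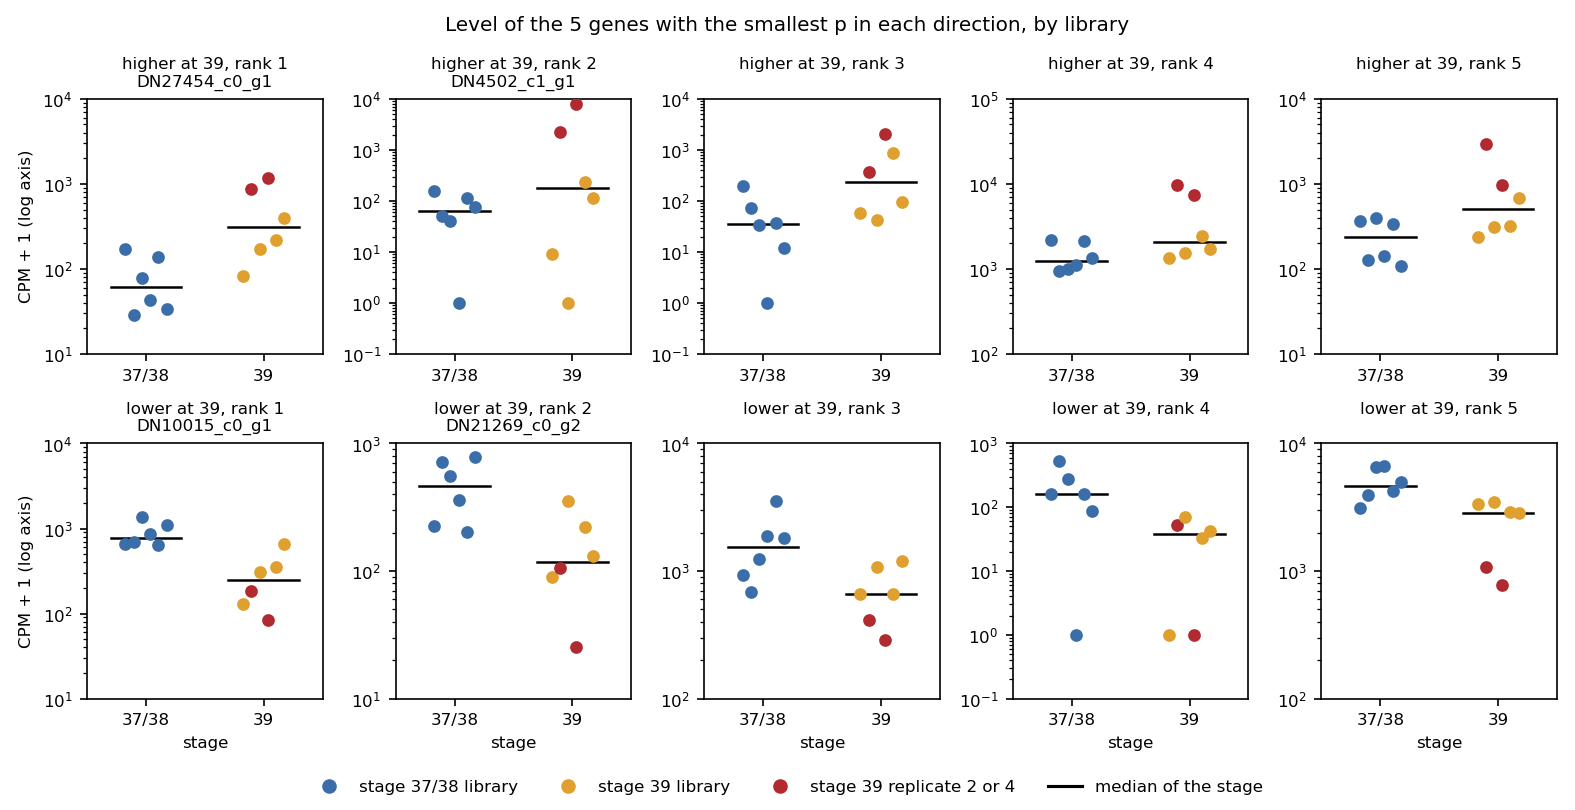
CPM + 1 on a log axis for each library, for the 5 genes with the smallest p in each direction among those with a count in at least 5 of 6 libraries of the higher stage; bars are stage medians. In the upper row stage 39 replicates 2 and 4 (red) are 2 of the 3 highest points of each panel, and in the lower row most stage 39 libraries lie under the stage 37/38 median.

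Complete separation of the stages was rare. In CPM, 0 of 1182 genes had every stage 39 library above every stage 37/38 library (0%), and 1 gene had every stage 39 library below (0.0846%). That gene, chosen after its values were seen, had 706, 816, 682, 711, 756 and 1110.0 CPM in stage 37/38 replicates 1 to 6 and 662, 311, 519, 283, 589 and 671 at stage 39. Its gap was narrow, from 671 to 682 CPM, and its log2 fold change was -0.38 (SE 0.35, edgeR adjusted p = 0.9865). On the TMM scale, which raises the values of stage 39 replicates 2 and 4, 0 genes were separated in either direction (0% each). The next 2 counts use CPM without TMM factors, and allow 1 library of the higher stage, but none of the lower, to overlap. At least 5 stage 39 libraries lay above all of stage 37/38 in 2 genes (0.169%). In 8 genes at least 5 stage 37/38 libraries lay above all of stage 39 (0.677%). These counts were not repeated on the TMM scale.

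Genes seen at 1 stage and nearly absent from the other were few, and which stage had more of them depended on depth. Counting all reads, 68 genes had a count in at least 5 of 6 stage 39 libraries and in at most 1 of 6 at stage 37/38, and 32 had the reverse pattern (0.444% and 0.209% of 15319 genes with a count). Stage 39 libraries were deeper on average. In the draw of 70000 counts per library these numbers were 35 and 48 (0.255% and 0.349% of 13735 genes seen), and over 20 further draws from the same libraries they were 24 to 44 and 36 to 52, with the second number larger in 19. Of the 35, 8 had over 50% of their stage 39 CPM in replicates 2 and 4. In that draw, 11 of the 35 genes and 32 of the 48 reached 100 CPM in at least 1 library. Neither of these traits was counted over all genes seen in the draw.

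The earlier step could be measured apart in the 2 runs of title letters, which share no library. The first run holds 3 libraries of stage 37/38 and 4 of stage 39, among them replicates 2 and 4, and the second run holds 3 and 2. Across the 1182 genes the log2 fold changes of the runs had a Pearson r of 0.017 and a Spearman rho of 0.033, where the points are genes, which are not independent of each other. The sign was the same in 600 genes (50.8%). Of the 22 genes higher at an unadjusted p under 0.05 in the first run, 14 were higher in the second and 1 had an unadjusted p under 0.05 there in edgeR. Of the 12 lower ones, 8 were lower in the second run and 0 had such a p. Of the 22 higher and 10 lower genes in the second run, 9 and 3 had the same sign in the first. The median SE of a log2 fold change was 1.06 in the first run and 1.47 in the second, so most single values were not distinguishable from 0 in either.

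**Figure D5:**
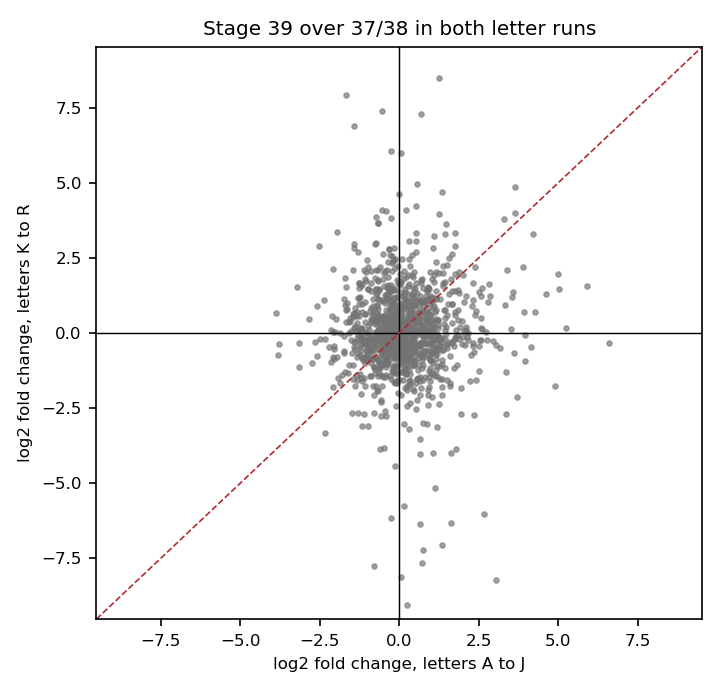
Log2 fold change of stage 39 over 37/38 in the libraries with letters K to R against that in the libraries with letters A to J, 1 point per gene (1182 genes), with the dashed line marking equality. The points form a cloud around 0 with no slope (Pearson r = 0.017), and 50.8% have the same sign in both.

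For the genes of ranks 1 to 3 among those higher and ranks 1 and 2 among those lower, the 2 runs gave values of the same sign, and differences in size between the runs were not tested. TRINITY_DN27454_c0_g1 had a log2 fold change of 3.40 (SE 1.19) in the first run and 2.09 (SE 1.26) in the second. TRINITY_DN4502_c1_g1 had 5.89 (SE 2.28) and 1.55 (SE 1.55). The gene of rank 3 had 3.63 (SE 1.51) and 4.86 (SE 1.58), and it was the 1 gene with the same sign and an unadjusted p under 0.05 in both runs in edgeR. TRINITY_DN10015_c0_g1 had -2.09 (SE 0.62) and -0.80 (SE 0.76), and TRINITY_DN21269_c0_g2 had -1.70 (SE 0.81) and -1.29 (SE 1.07). These genes were picked from both runs together, so the shared sign is no independent support.

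Abundant genes were bounded more closely than the rest. The limma-voom 95% interval of the fold change, unadjusted, stayed inside 4-fold up or down for 433 of 1182 genes (36.6%) and within 2-fold for 57 (4.82%). These intervals bound the limma-voom value, which can differ from that of edgeR, as given below for the most abundant genes. Of the 90 genes that averaged 1000 CPM or more, which held 58.8% of all counts, 73 lay within 4-fold (81.1%) and 32 within 2-fold (35.6%). Of the 695 genes between 100 and 1000 CPM, 312 lay within 4-fold and 25 within 2-fold. Of the 397 genes under 100 CPM, 48 lay within 4-fold and 0 within 2-fold, and the median half-width of their interval was 2.12 on the log2 scale against 0.762 in the most abundant class. For most genes in each class under 1000 CPM, a 4-fold difference lay inside the interval at this depth and spread. A missing call there therefore does not show an equal level.

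The 3 most abundant genes held a large part of each library. The first took 14.6% ± 5.29 of the counts at stage 37/38 and 17.7% ± 10.2 at stage 39 (SD, n = 6 each), with a limma-voom log2 fold change of 0.29 (95% interval -0.65 to 1.23). Its lowest and highest shares both lay in stage 39, 8.06% in replicate 3 and 33.8% in replicate 4. The second, from the same component, took 10.4% ± 4.48 and 11.95% ± 3.84, with an interval of -0.38 to 1.15. The third took 6.79% ± 2.90 and 3.99% ± 3.24, with a log2 fold change of -0.86 (95% interval -1.77 to 0.05). Its share was under 3% in stage 39 replicates 2, 4, 5 and 6 and 6.44% and 9.49% in replicates 1 and 3, against 2.52% to 9.95% at stage 37/38, so the stages overlapped. The sizes depended on the method. In edgeR the log2 fold changes of the 3 genes were 0.89 (SE 0.55), 0.65 (SE 0.46) and -0.60 (SE 0.49), each at an edgeR adjusted p of 0.9865.

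The spread between libraries was wide within each stage. The biological coefficient of variation estimated by edgeR over the tested genes was 0.922 within stage 37/38 and 1.01 within stage 39, and 0.934 within stage 39 without replicates 2 and 4. Of the 1182 tested genes, 403 shared a component with another gene of the assembly. In the 60 components with at least 2 tested genes, 47 of 95 pairs of genes had log2 fold changes of the same sign (49.5%).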

How the data were processed

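Trimmomatic, Bowtie2 and RSEM are named in the submitters' processing notes, with no version or role. Per the series' design text, isoform counts were collapsed to genes with the map of a Trinity assembly. The values that the authors deposited are expected counts (8.79% of those above 0 were not whole); a second deposited file is that map, of identifiers with no measured unit (other). How the assembly was made is not given in the sources used here.

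Counts were rounded. The edgeR 4.0.16 filter filterByExpr by stage (minimum count 10) kept 1182 genes with 73.5% to 86.8% of a library's counts, and glmQLFit and glmQLFTest with TMM scaling tested stage over the 12 libraries, with Benjamini-Hochberg adjustment. SE is log2 fold change over the root of F. CPM is per 1000000 of all counts of a library, without TMM, so fold changes differ from ratios of mean CPM. In CPM, 1 count is 1.91 to 13.95. Correlations used TMM-scaled log2 CPM (prior count 2). Intervals are from limma-voom 3.58.1 with sample weights. The alternatives were DESeq2 1.42.0, other scalings and filters, a fit with all 17 libraries, the replicate block, letter runs, sums per component and left-out libraries. The pipeline was tested on simulated counts. These were drawn independently for each library and hold no pair like stage 39 replicates 2 and 4. They therefore do not test calls that rest on such a pair.

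Described genes are, in each direction, the 5 of smallest p in edgeR with a count in at least 5 of 6 libraries of the higher stage. The comparison, this rule and the alternatives were chosen with earlier results of these data known.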

Additional observations from a re-analysis of the deposited data

Results flagged for a closer look

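Among the 5 library measures and the 10 genes described by rank, 30 groups of 6 values were searched for a single library far from the other 5, by the gap to its nearest neighbour as a share of the range. Chance flags about 1 in 20 such groups if values are normally distributed, which CPM with zeros are not, and 3 were found. All 3 are of genes picked by their difference between the stages, for which that rate does not hold. For TRINITY_DN4502_c1_g1, stage 39 replicate 4 stood at 7912 CPM, while the remaining 5 stage 39 libraries held 0 to 2292. For the gene of rank 5 among those higher at stage 39, replicate 2 of that stage stood at 2984 CPM and the rest at 234 to 965. For the gene of rank 3, stage 37/38 replicate 1 stood at 194 CPM and the rest of that stage at 0 to 70.4. The first 2 of these values lie in the pair of stage 39 libraries that also correlated most with each other. The difference by which these 2 genes were picked rests largely on that pair, so this is no separate observation.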

How the results depend on the processing

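The count of called genes was 0 in edgeR's main fit and 14 in DESeq2, 56 of 15319 (0.366%) without a filter on low counts and 31 of 5490 (0.565%) with a filter of 5 CPM in 5 libraries. Of the 51 and 30 genes called higher at stage 39 under the last 2 settings, 48 and 29 had over 50% of their stage 39 CPM in replicates 2 and 4. The matching share over all genes of these 2 settings was not computed. DESeq2 gave 5 calls with adjustment over the 1178 genes that had a p-value, and 0 without that pair, an alternative added after seeing the data. Under the other 24 settings, left-out libraries (0 to 0) included, 0 genes were called. Genes at an unadjusted p under 0.05 in edgeR numbered 33 to 72 with 1 library left out and 29 with the letter run as a term. Without stage 39 replicates 2 and 4 they numbered 25, of which 13 were higher. Other filters also changed how many genes were tested. With at least 5 counts in 6 libraries, 85 of 2217 genes had such a p. With 5 CPM in 5 libraries it was 285 of 5490, and without a filter 3399 of 15319. In DESeq2 it was 75 of 1182. With the replicate block edgeR called 0 genes, with 17 at an unadjusted p under 0.05. Whether equal numbers pair libraries is not stated in the labels. Same-numbered libraries' deviations from their stage means correlated at -0.161 to 0.038, and 0 of 12 libraries correlated best with its own number. Given the spread between libraries, these values show no sign of a pairing but cannot exclude it. The 10 genes described by rank kept their sign in 270 of 270 alternative values. They were picked by their difference in these libraries, which the alternatives reuse, so the kept sign is no test. Sizes changed in some of them, as given above for the fits without stage 39 replicates 2 and 4. Some also changed with all 12 libraries kept. TRINITY_DN4502_c1_g1 had a log2 fold change of 1.39 in limma-voom and 1.30 with the replicate block, against 5.62 in the main fit. Ranks 4 and 5 of that direction had 1.23 and 1.35 in limma-voom, against 2.21 and 2.51. TRINITY_DN10015_c0_g1 changed less, at -1.52 in limma-voom against -1.53. With 1 library left out, stage 39 minus 37/38 ran from -140 to 548 genes at equal depth, -78.7 to 54.0 effective genes and -0.028 to 6.12 percentage points for the 10 most abundant genes. Stage 39 minus 37/38 was -858 genes and -38.7 effective genes in the first letter run, and -3.84 points and 0.121 in mean correlation with the own stage in the second. The within-stage minus between-stage correlation was -0.0140 to 0.0165 with 1 library left out, 0.00198 with a prior count of 5 and 0.00589 over genes in all 12 libraries. The causes of these changes were not tested.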
